A study of Rattus norvegicus with 6 samples.

Results

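Metallothioneins are small proteins rich in cysteine that bind zinc and copper and buffer heavy metals and oxidants in the cell. In liver their genes are known for strong induction by zinc and cadmium through the metal-sensing factor MTF-1, and also by glucocorticoids, interleukin 6 and oxidative stress. The genes described here are Mt1, which encodes metallothionein 1 (ENSRNOG00000038047), and Mt2A, which encodes metallothionein 2 (ENSRNOG00000043098). They were taken by Ensembl ID, and both of the 2 were present among 26689 gene IDs and among the 9932 that passed the filter on low counts. The files hold no symbols and the RefSeq table at hand carries no Ensembl IDs, so the pairing of these IDs with their symbols could not be checked. RefSeq (GRCr8) places Mt1, Mt2A, Mt3 and Mt4 next to each other on chromosome 19, and also lists a protein-coding Mt1f and the pseudogenes Mt1m, Mt1-ps1, Mt1-ps3 and Mt1-ps4 on other chromosomes. Counts of genes with near copies are uncertain, because reads that fit several places were not assigned to a gene.

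The study asked whether acting on vasoconstriction or on inflammation improves the outcome of ischemia reperfusion (IR) of the rat liver, in which the portal vein is clamped and then released. Its 3 conditions were healthy untreated rats (control), rats with IR alone, and rats with IR that had received etanercept (9 mg/kg, between 18 and 16 h before IR) and an intravenous nitroglycerin infusion (6 µg/kg/min, before and during IR), called treated IR below. Etanercept binds tumor necrosis factor, and nitroglycerin releases nitric oxide. RNA was taken 1 day after IR from whole liver and, in other animals, from hepatocytes freshly isolated by collagenase perfusion. The RNA of 3 animals was pooled per group, so each of the 6 groups was 1 library and no difference between 2 libraries has a replicate check. No sham operation is named for the controls, so operated animals were set against unoperated ones. Because the files pair no ID with a symbol, neither the hepatocyte preparation nor the whole liver could be checked against its marker genes.

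Reads in genes ran from 1945331 in liver control, the shallowest library, to 7160610 in liver IR. Levels are CPM, a gene's reads scaled to a common library total, after TMM scaling, which adjusts library sizes by a trimmed mean of gene ratios, and 3 reads equalled 0.40 to 1.39 CPM. CPM was not divided by transcript length, so Mt1 and Mt2A levels are not compared with each other. Alignments that were not unique made up 60.1% of alignments in liver IR and 41.1% to 46.3% in the other 5 libraries. Their part in the metallothionein values was not tested.

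The sequences just upstream of both genes are shown because both genes ordered the libraries alike, and because metal response elements, the sites bound by MTF-1, are the best known control sites of metallothionein genes. Whether these sites have a part in that order was not tested. Both windows hold the 250 bases before the RefSeq start on the minus strand of GRCr8, chr19:10832976-10833225 for Mt1 and chr19:10838709-10838958 for Mt2A. Capitals mark matches to the metal response element core on either strand (TGCACNC or TGCGCNC, where N is any base).
Mt1: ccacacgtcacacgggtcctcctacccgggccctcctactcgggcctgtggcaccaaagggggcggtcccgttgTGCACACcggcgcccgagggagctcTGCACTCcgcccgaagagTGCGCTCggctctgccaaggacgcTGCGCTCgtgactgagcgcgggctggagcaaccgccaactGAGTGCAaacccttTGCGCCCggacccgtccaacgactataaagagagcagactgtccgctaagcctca
Mt2A: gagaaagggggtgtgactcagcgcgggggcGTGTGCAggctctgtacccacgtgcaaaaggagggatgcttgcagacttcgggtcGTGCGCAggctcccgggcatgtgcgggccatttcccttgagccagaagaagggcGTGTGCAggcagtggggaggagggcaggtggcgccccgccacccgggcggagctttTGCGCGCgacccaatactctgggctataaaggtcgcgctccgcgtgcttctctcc

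The Mt1 window held 6 metal response element cores, beginning 176, 151, 133, 109, 69 and 55 bases before the start. As many were found in 0.0269% of 33469 RefSeq windows of this length, and at least 1 in 20.6%. In the Mt2A window there were 4, beginning 220, 165, 111 and 55 bases before the start, a number reached by 0.266% of windows. Mt3 and Mt4, the neighbouring genes, had 3 and 1. One antioxidant response element core (TGACNNNGC, found in 10.1% of windows) stood 101 bases before the start of Mt1 and one 237 bases before that of Mt2A. A TATA box (TATAAA, in 12.9% of windows) began 32 and 31 bases before the starts. The hypoxia response element core (ACGTG or GCGTG, in 36.7% of windows) matched 1 time in Mt1. It matched 5 times in Mt2A, a number reached by 1.04% of windows. Of those 5 matches, 2 overlapped each other on opposite strands and 2 overlapped metal response element cores. No STAT site (TTCNNNGAA, in 7.67% of windows) was matched in either window. A match describes these letters and does not show that a factor binds there.

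**Figure D1:**
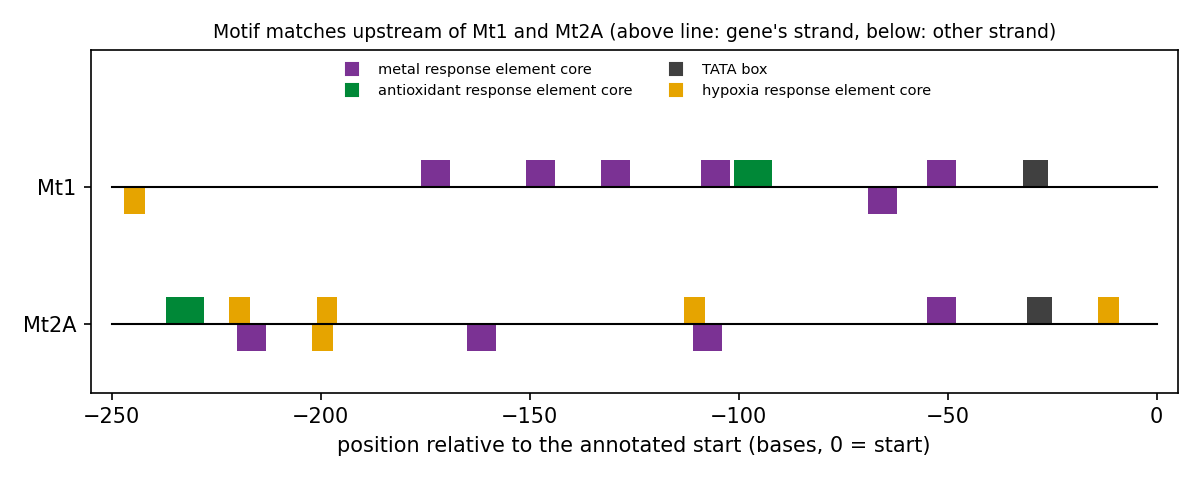
Motif matches in the 250 bases before the start of Mt1 and Mt2A. The horizontal axis is the position in bases relative to the start, boxes above the line are on the gene's strand and boxes below it on the other; 6 metal response element cores lie before Mt1 and 4 before Mt2A.

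Mt1 was counted with 19, 684 and 365 reads in the control, IR and treated IR libraries of liver. The hepatocyte libraries held 245, 62 and 596 in that order. Scaled, Mt1 in liver stood at 8.27 CPM for control (95% Poisson interval 4.98 to 12.9), at 101 CPM after IR (93.7 to 109) and at 48.6 CPM with treatment (43.7 to 53.9). Liver was thus lowest in control and highest in IR, and these 3 intervals did not overlap. Mt1 in hepatocytes stood at 75.9 CPM for control (66.7 to 86.0), at 12 CPM after IR (9.17 to 15.3) and at 276 CPM with treatment (254 to 299). There IR was the lowest library and treated IR the highest. Every interval given reflects counting error alone, because no group had a replicate library. Without molecular identifiers on the reads, duplicate copies could not be told apart, so the intervals may be too narrow even for counting error.

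Mt2A was counted with 62 reads in control liver, 2723 after IR and 1921 with treatment. The hepatocyte libraries held 1281, 980 and 1836 of its reads in that order. Its liver level was 27.0 CPM for control (95% Poisson interval 20.7 to 34.6), 402.5 CPM after IR (388 to 418) and 256 CPM with treatment (244 to 268). As for Mt1, liver control was the lowest and liver IR the highest of the liver libraries. In hepatocytes Mt2A stood at 397 CPM for control (375 to 419), at 189 CPM after IR (177 to 201) and at 850.3 CPM with treatment (812 to 890.1). The hepatocyte order was again IR, control, treated IR, from low to high.

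**Figure D2:**
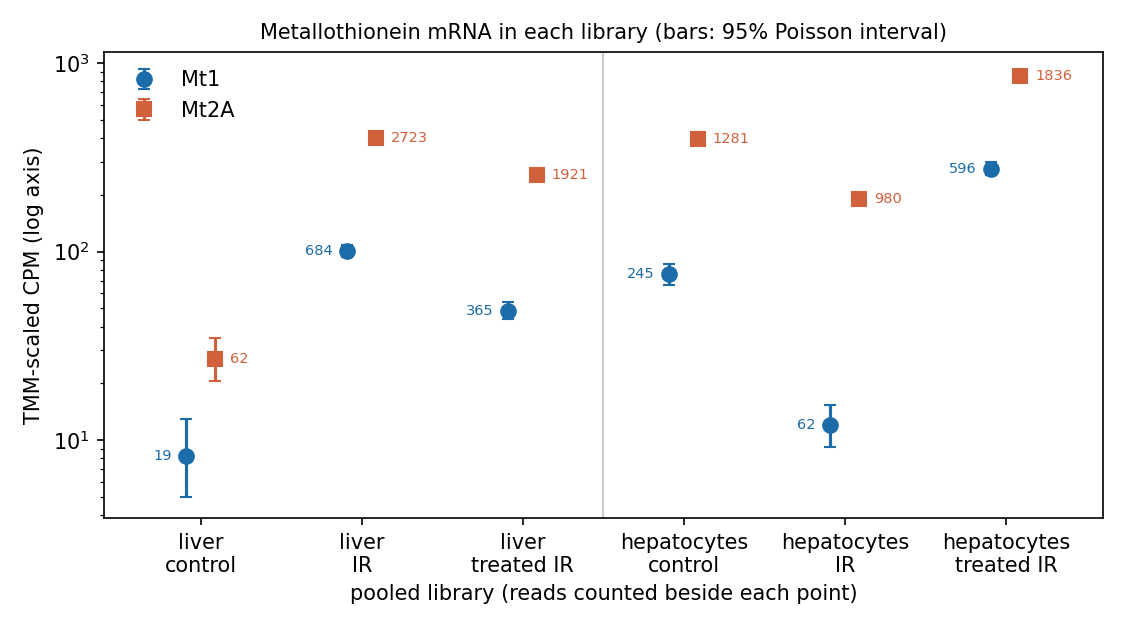
Mt1 and Mt2A in each of the 6 pooled libraries. The vertical axis is TMM-scaled CPM on a log scale, points are single libraries labelled with their reads, and bars are 95% Poisson intervals for counting error; both genes are lowest in liver control (8.27 and 27.0 CPM) and highest in hepatocyte treated IR (276 and 850.3 CPM).

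Both genes put the 6 libraries in the same order, from hepatocyte treated IR through liver IR, hepatocyte control, liver treated IR and hepatocyte IR down to liver control. The highest library was 33.4 times the lowest for Mt1 and 31.5 times for Mt2A. Neighbours in this order whose counting intervals overlapped were hepatocyte IR and liver control for Mt1 and liver IR and hepatocyte control for Mt2A. Over the 6 libraries the log2 levels of the 2 genes had a Pearson r of 0.89 and a Spearman rho of 1, given as a description because both genes share each library's depth and scaling. Without liver control and hepatocyte treated IR, the 2 libraries farthest from the median of Mt2A, r was 0.95 over 4. Among 9931 other genes Mt1 ranked 164 by its r with Mt2A, so many genes tracked Mt2A as closely over these 6 libraries.

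The place of Mt2A among all genes by read count in liver was 2774 for control, 226 for IR and 327 for treated IR. The hepatocyte places were 265, 492 and 150. Mt1 took places 6048, 884 and 1679 in liver and 1234, 5123 and 432 in hepatocytes. Both transcripts together made up 0.00416% of reads in liver control and 0.0476% in liver IR. They made up 0.0195% in hepatocyte IR and 0.0895% in hepatocyte treated IR.

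In whole liver both genes were higher after IR than in control. The ratio was 12.2 for Mt1 (counting interval 7.77 to 20.4, 95% Clopper-Pearson) and 14.9 for Mt2A (11.6 to 19.5). Among 9932 genes these were the 6 and 5 highest places by log2 ratio, which was 3.54 for Mt1 and 3.88 for Mt2A with a prior count of 2, beside a median of 0.045 over all genes. Genes were called higher or lower where 2 libraries differed 2-fold or more and the counting interval left out a ratio of 1, which 3.76% of genes met upward in this comparison. The liver control value of Mt1 rests on 19 reads, which sets the width of its interval. In bulk tissue, more RNA per cell and a larger share of the cells that hold it cannot be told apart.

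Isolated hepatocytes showed the opposite order. Mt1 was 6.34-fold lower in hepatocyte IR than in hepatocyte control (counting interval 4.78 to 8.52), at a log2 ratio of -2.62. Mt2A was 2.10-fold lower (1.93 to 2.28), at a log2 ratio of -1.07. Both were called lower, as were 6.93% of genes, and the interval for Mt2A reaches below 2-fold. Mt1 took place 49 from the lowest ratio, and 0.846% of genes were at least as far from equality. For Mt2A that share was 16.2%, so a difference of its size was common among hepatocyte genes.

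Set side by side and without the prior count, the log2 ratio of IR to control in liver exceeded that in hepatocytes by 6.28 for Mt1 (95% counting interval 5.51 to 7.05) and by 4.97 for Mt2A (4.59 to 5.35). Taken with the prior count for every gene, a gap at least as wide was found for 0.111% and 0.211% of genes. Calls of higher in liver and lower in hepatocytes were made for 0.745% of genes, and both metallothioneins were among them. The liver and hepatocyte libraries came from different animals. With 1 library per group the difference between the preparations could not be tested against variation between pools.

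**Figure D3:**
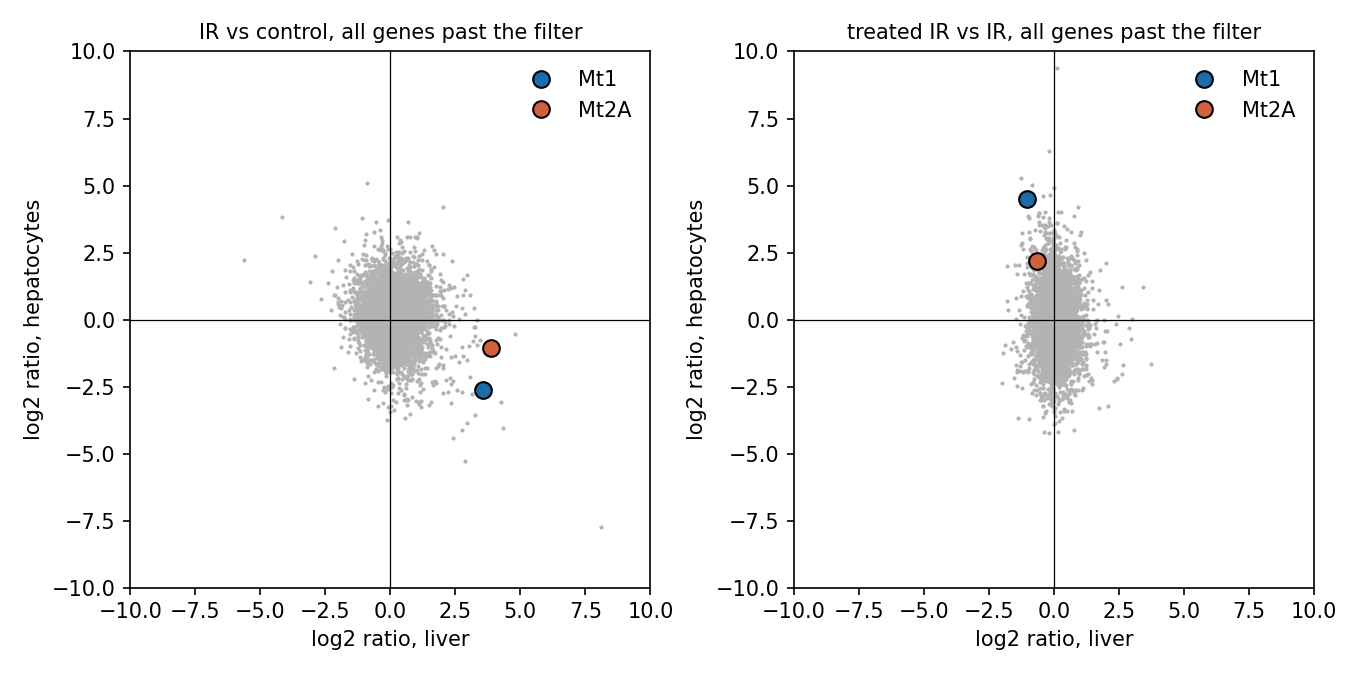
Log2 ratios in liver (horizontal axis) and in hepatocytes (vertical axis) of the 9932 genes past the filter, for IR vs control on the left and treated IR vs IR on the right. Each grey point is a gene; Mt1 and Mt2A lie at positive liver and negative hepatocyte values on the left, and at negative liver and positive hepatocyte values on the right.

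With etanercept and nitroglycerin, metallothionein RNA in liver lay between control and IR alone. Mt1 was 2.08-fold lower in liver treated IR than in liver IR (counting interval 1.83 to 2.37), and was called lower, as were 0.946% of genes. Mt2A was 1.57-fold lower (1.48 to 1.67) and did not reach the 2-fold rule. The log2 ratios were -1.05 and -0.65, and 1.91% and 7.86% of genes were at least as far from equality. Scaling by library totals alone gave Mt1 a log2 ratio of -0.66, under the 2-fold rule. Treated liver lay above liver control for both genes.

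Hepatocytes had far more metallothionein RNA in treated IR than in IR alone. Mt1 was 23.1-fold higher (counting interval 17.7 to 30.5), the place 9 from the highest of 9932 log2 ratios, at 4.48. Mt2A was 4.5-fold higher (4.16 to 4.87), at a log2 ratio of 2.17 and place 165. Both were called higher, as were 11.2% of genes in this pair of libraries, which stood far apart in general. The interquartile range of log2 ratios over all genes was -0.65 to 0.55 here, against -0.20 to 0.20 in liver.

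Liver and hepatocytes were thus opposed in this comparison as well. The log2 ratio in liver was below that in hepatocytes, by -5.59 for Mt1 (95% counting interval -6.00 to -5.17) and by -2.82 for Mt2A (-2.96 to -2.68). Shares of genes were taken from log2 ratios with the prior count, which these gaps leave out. Only 0.0503% of genes had a gap as wide as Mt1, and 2% as wide as Mt2A. Mt1 was called lower in liver and higher in hepatocytes, as were 0.232% of genes. Both comparisons use the untreated IR libraries, so the values of hepatocyte IR and liver IR enter both patterns.

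**Figure D4:**
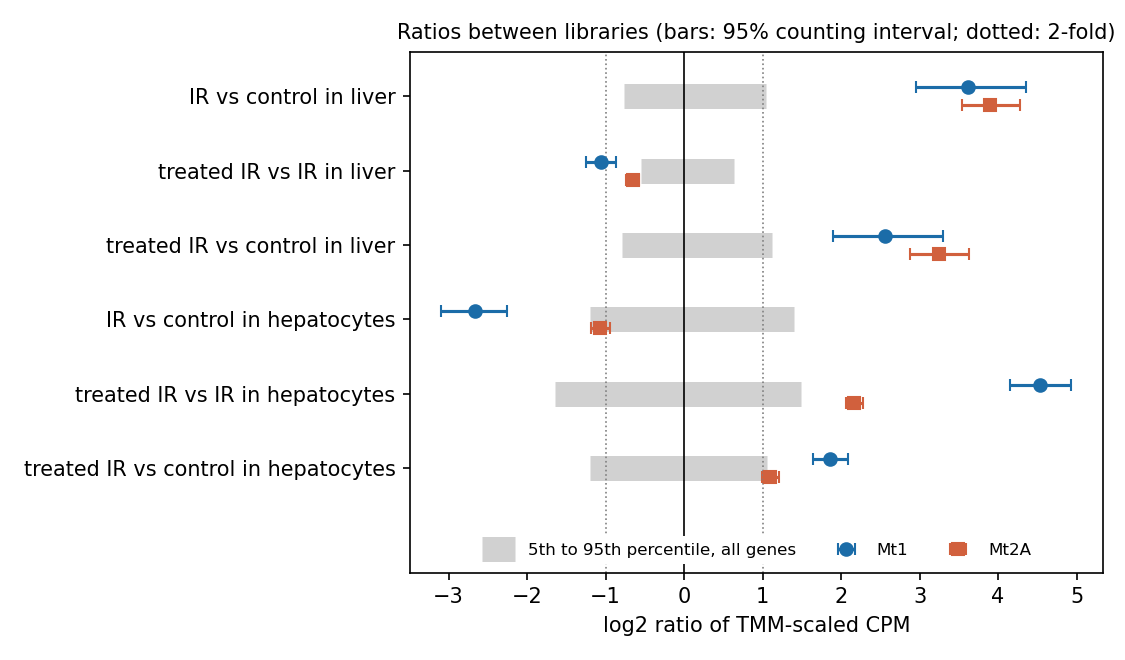
Log2 ratios of TMM-scaled CPM for Mt1 and Mt2A in 6 comparisons within liver and within hepatocytes, with 95% Clopper-Pearson counting intervals. Grey bands run from the 5th to the 95th percentile of 9932 genes and dotted lines mark 2-fold; points are ratios without the prior count. Both genes lie to the right of the band for IR vs control in liver, and for IR vs control in hepatocytes Mt1 lies to the left of the band and Mt2A within it.

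Treated IR against control, a comparison without either untreated IR library, gave the same direction in both preparations. It shares the control libraries with IR vs control, so the values of liver control and hepatocyte control enter both comparisons. In liver Mt1 was 5.88-fold higher (counting interval 3.71 to 9.88) and Mt2A 9.48-fold (7.36 to 12.4). Both were called higher, as were 4.82% of genes, and took places 53 and 16 from the highest. In hepatocytes Mt1 was 3.64-fold higher (3.13 to 4.24) and Mt2A 2.14-fold (1.995 to 2.30), both called higher beside 4.23% of genes. Their places there were 69 and 449 from the highest, and 1.94% and 10.5% of genes were at least as far from equality. Scaled by library totals, Mt2A was 1.82-fold higher there and missed the 2-fold rule. For Mt2A the liver ratio exceeded the hepatocyte ratio by 2.14 on the log2 scale (counting interval 1.77 to 2.52). The gap for Mt1 was 0.69 (-0.0073 to 1.39), within counting error.

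Hepatocytes were also set against liver in each condition, from the same libraries. Cell type cannot be told apart here from collagenase isolation or from differences between animals. The control ratios rest on liver control, the shallowest library, with 19 reads of Mt1 and 62 of Mt2A. In control, hepatocytes had 9.17-fold more Mt1 than liver (counting interval 5.75 to 15.5) and 14.7-fold more Mt2A (11.4 to 19.3). Both were called higher, as were 3.87% of genes. In IR the order was turned, with Mt1 8.45-fold lower (6.51 to 11.2) and Mt2A 2.13-fold lower (1.98 to 2.29) in hepatocytes, beside 11.5% of genes called lower. In treated IR hepatocytes again had more, 5.68-fold for Mt1 (4.98 to 6.49) and 3.32-fold for Mt2A (3.12 to 3.55), beside 6.88% called higher.

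Mt1 and Mt2A did not keep a fixed proportion. Mt1 supplied 23.5% of the reads of both genes in liver control (95% Clopper-Pearson interval 14.8 to 34.2), 20.1% once IR had been applied (18.7 to 21.5) and 16.0% with treatment (14.5 to 17.5). Its hepatocyte share was 16.1% for control (14.2 to 18.0), 5.95% after IR (4.59 to 7.56) and 24.5% with treatment (22.8 to 26.3). Hepatocyte IR was below the interval of each of the other 5 libraries. This share compares reads within a library, so scaling does not enter it, and it is not a ratio of transcript numbers because lengths were not used.

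**Figure D5:**
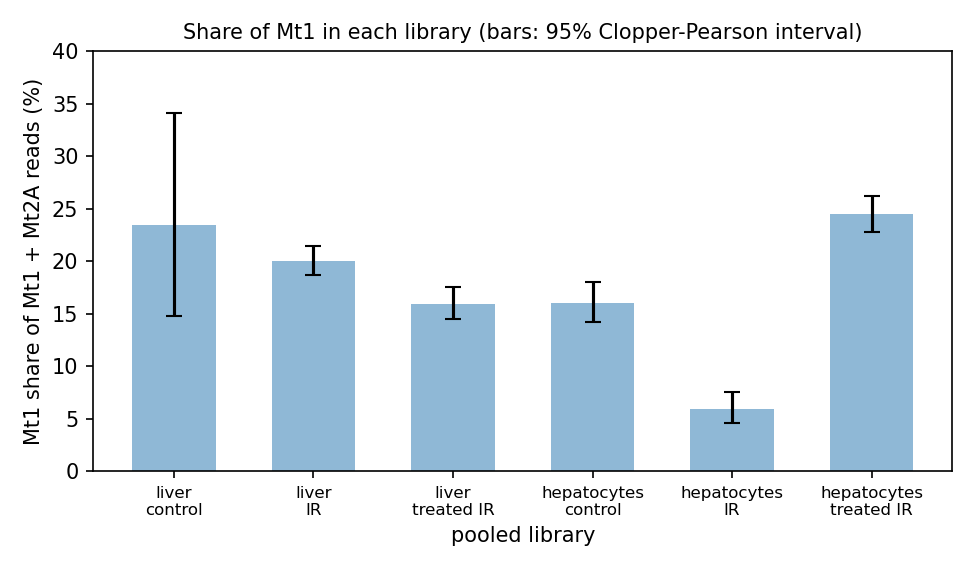
Share of Mt1 in the reads of Mt1 and Mt2A together (vertical axis, percent) in each pooled library, with 95% Clopper-Pearson intervals. Hepatocyte IR has the lowest share, at 5.95%, and hepatocyte treated IR the highest, at 24.5%.

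To test a shift shared by liver and hepatocytes, edgeR's quasi-likelihood model with terms for preparation and condition was fitted to the 6 libraries, with Benjamini-Hochberg adjustment over 9932 genes. Neither gene passed for IR vs control, where the log2 ratio was 1.32 for Mt1 (SE 1.13, edgeR adjusted p = 0.996) and 1.48 for Mt2A (SE 0.89, edgeR adjusted p = 0.996). Each was higher in 1 of 2 preparations, and the spread of this fit includes the opposed responses. For this contrast 0% of genes were called (0 by edgeR, with 332 at an unadjusted p under 0.05, and 0 by DESeq2 and limma-voom). For treated IR vs IR the log2 ratios were 0.65 (SE 1.06, edgeR adjusted p = 0.981) and 0.24 (SE 0.79, edgeR adjusted p = 0.994), and edgeR called 0% of genes.

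Treated IR vs control, in which both genes were higher in 2 of 2 preparations, gave 1.97 for Mt1 (SE 0.92, unadjusted p = 0.0506, edgeR adjusted p = 1) and 1.72 for Mt2A (SE 0.78, unadjusted p = 0.0445, edgeR adjusted p = 1). Again 0% of genes were called by edgeR, with 230 at an unadjusted p under 0.05. With no expression filter Mt1 passed in edgeR, at 1.95 (adjusted p = 0.00301), as did 14 of 16548 genes in all. Mt2A did not pass there (edgeR adjusted p = 0.174). Hepatocytes vs liver over the 3 conditions gave 1.24 for Mt1 (SE 0.97, edgeR adjusted p = 0.899) and 1.52 for Mt2A (SE 0.73, edgeR adjusted p = 0.539). Both genes were higher in hepatocytes in 2 of 3 conditions and lower in IR, and 5.34% of genes were called. With no filter Mt2A passed hepatocytes vs liver in edgeR, at 1.52 (adjusted p = 0.0165), as did 712 of 16548 genes in all. Mt1 did not pass it (edgeR adjusted p = 0.0845).

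The results of these fits depended on single libraries, above all the untreated IR ones. A fit on 5 libraries has 1 residual degree of freedom and leaves 1 condition with a single library. That library is assumed to vary like the other groups, which alone supply the spread, so an adjusted p involving its condition has no replicate check of it. For that reason log2 ratios alone are given for these fits. Without hepatocyte IR, so that liver alone stood for IR, edgeR gave IR vs control a log2 ratio of 3.30 for Mt1 and 3.16 for Mt2A. Without liver IR, so that hepatocytes alone stood for IR, Mt1 had -2.53 and Mt2A -0.65. Treated IR vs control was 2.11 for Mt1 and 2.08 for Mt2A without hepatocyte IR, and 2.14 and 2.10 without liver IR. These fits are not separate checks. A lone IR library is matched exactly by its own term. Treated IR vs control thus rests on the same control and treated IR libraries in both fits. Without hepatocyte control, when liver control alone stood for control, treated IR vs control was 4.46 for Mt1 and 4.11 for Mt2A. Leaving out liver treated IR, with hepatocytes alone for treated IR, gave 2.66 for Mt1 and 1.80 for Mt2A. Without hepatocyte treated IR, treated IR vs control was 0.056 for Mt1 and 1.44 for Mt2A. Without liver control it was 1.05 and 0.55. Hepatocytes vs liver was 2.73 for Mt1 and 2.69 for Mt2A without hepatocyte IR, and 2.78 and 2.74 without liver IR. This contrast too rests on the same control and treated IR libraries in both fits. Treated IR vs IR without liver IR, again with hepatocyte IR as the lone IR library, was 4.66 for Mt1 and 2.75 for Mt2A. With no library left out, neither gene passed any contrast under DESeq2's Wald test or limma-voom.

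The genes most like the pair over the 6 libraries were ranked by Pearson r with the mean log2 level of both. ENSRNOG00000037087 came first (r = 0.99), with 4 to 27 reads and 1.74 to 5.56 CPM. ENSRNOG00000049088 came second (r = 0.99), with 3 to 30 reads and 1.31 to 7.87 CPM. Of 9930 genes, 182 had an r of at least 0.9 and 70 an r of at most -0.9. Close likeness was not limited to genes of low counts: ENSRNOG00000025764, at place 5 and named after its values were seen, had an r of 0.99 with 292 to 5431 reads and 127 to 1982 CPM. The ranking describes these 6 libraries only.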

How the data were processed

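The authors deposited unnormalised read counts for Ensembl gene IDs, from mRNA-selected libraries read on an Ion Torrent Proton, per the labels. The submitters' processing notes name TopHat2 (version 2.0.13) as well as HTSeq (version 0.6.1). The sources used here do not give the genome build, the annotation or the strand setting. Summary lines naming no gene were left out of library sizes (reads outside genes were 6.23% to 8.34% of uniquely aligned reads, ambiguous ones 0.358% to 0.798%).

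Groups came from sample titles. edgeR's filterByExpr (minimum count 10, by condition) kept 9932 genes, and libraries were scaled by TMM (factors 0.795 to 1.24). Log2 ratios used a prior count of 2. Pairs of libraries got 95% Clopper-Pearson counting intervals and no p-value. The fit across preparations had 2 residual degrees of freedom, its SE was taken from the F statistic, and adjusted p at most 0.05 was the threshold. Scripts were tested on simulated data. Software was DESeq2 1.42.0, limma 3.58.1 and edgeR 4.0.16 under R 4.3.3.

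The members and lists were chosen with earlier results of these data known. Named genes were both members and the 2 IDs most like them. Fixed lists of metal-handling genes, stress responders and cell markers could not be read, since 0 of 26689 IDs matched a symbol. Upstream motifs were chosen after the data were seen. Alternatives tried were scaling by library totals or by DESeq2's size factors, no filter, a minimum count of 50, a prior count of 0.5, DESeq2's Wald test, limma-voom and leaving out each library.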

Additional observations from a re-analysis of the deposited data

Results flagged for a closer look

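For IR vs control both genes were on opposite sides in liver and hepatocytes. The log2 ratio of Mt1 was 3.54 in liver and -2.62 in hepatocytes, and that of Mt2A was 3.88 in liver and -1.07 in hepatocytes. For treated IR vs IR the sides were exchanged, at -1.05 in liver and 4.48 in hepatocytes for Mt1 and at -0.65 in liver and 2.17 in hepatocytes for Mt2A. With 1 pooled library per group these differences between the preparations were not tested.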

How the results depend on the processing

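Of 18 ratios between libraries (2 genes, 9 pairs), 16 kept direction and call under DESeq2's size factors, library totals, no filter, a minimum count of 50 and a prior count of 0.5. With library totals alone, treated IR vs IR in liver was -0.66 for Mt1 and treated IR vs control in hepatocytes 0.86 for Mt2A, both under the 2-fold rule. That scaling moved the median of all genes by -0.31 and 0.38 for IR vs control and treated IR vs IR in liver, by -0.27 and -0.20 for treated IR vs IR and vs control in hepatocytes, and by -0.32 and -0.61 for hepatocytes vs liver in control and treated IR. Calls of higher then made up 18.7%, 95.9%, 25.2%, 18.7%, 12.2% and 3.43% of calls, in place of 62.8%, 65.8%, 48.2%, 50.8%, 34.9% and 34.9%, in the same order.

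With library totals the genes called in the members' direction numbered 553 in place of 479 for treated IR vs control in liver, 605 (of 688) for IR vs control in hepatocytes and 1113 (of 1145) for hepatocytes vs liver in IR. The others were further below: 132 (of 373) for IR vs control and 26 (of 94) for treated IR vs IR in liver, 647 (of 1113) for treated IR vs IR and 187 (of 420) for treated IR vs control in hepatocytes, and 163 (of 384) and 108 (of 683) for hepatocytes vs liver in control and treated IR. A minimum count of 50, which tests 5902 genes, gave 155, 24 and 171 for IR vs control, treated IR vs IR and treated IR vs control in liver, 351 (of 688), 652 and 221 for the same in hepatocytes, and 204, 374 (of 1145) and 347 for hepatocytes vs liver in control, IR and treated IR. With no filter, which tests 16548 genes, 172 were lower for treated IR vs IR in liver, beside 94 of 9932 with the main filter. Counts under other filters are thus drawn from other totals than the main ones.

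In the fits across preparations, edgeR with no filter tested 16548 genes in place of 9932. It called 3 for IR vs control, 31 for treated IR vs IR and 14 for treated IR vs control (0 each with the filter). Mt1 passed the last at 1.95 and Mt2A passed hepatocytes vs liver at 1.52. DESeq2 called 1 gene for treated IR vs IR. A minimum count of 50, which tests 5902 genes, called 158 for hepatocytes vs liver, beside 530 of 9932 with the main filter. Leaving out 1 library at a time called 3 to 402, 0 to 659 and 0 to 37 genes for IR vs control, treated IR vs IR and treated IR vs control. The log2 ratios of Mt1 then ran from -2.53 to 3.30, -1.20 to 4.66 and 0.056 to 4.46, and from -0.20 to 2.78 for hepatocytes vs liver. Those of Mt2A ran from -0.65 to 3.36, -1.08 to 2.75, 0.55 to 4.11 and 0.33 to 2.74. IR vs control of Mt1 turned to -2.53 without liver IR, which leaves hepatocytes alone to stand for IR; causes of the other changes were not tested.

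As a share of all reads in genes, Mt1 in liver was 0.000977% for control, 0.00955% after IR and 0.00602% with treatment, and in hepatocytes 0.00710%, 0.00116% and 0.0219%. Depth limits Mt1 in liver control (19 reads) most. No paired analysis was possible, because the liver and hepatocyte libraries were pools of different animals. Preparation is already a term of the fits across preparations.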
